A study of Mus musculus with 4 samples.

Results

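Adenylyl cyclases, the enzymes that turn ATP into the second messenger cAMP, were examined in ingWAT, the inguinal depot of subcutaneous white fat, of cold-housed mice with or without the transporter Oct3 in adipocytes. The 10 isoform genes, *Adcy1* to *Adcy10*, were taken by their symbols from the expression table, which lists 19030 genes in all, and each of the 10 was found. The Control libraries (Ctrl) came from Oct3 fl/fl mice, in which loxP sites flank an exon, exon 2, of *Slc22a3*, the gene for Oct3. The Deficient libraries (cKO) came from mice that carry the same floxed alleles and an Adiponectin-Cre transgene, which is active in adipocytes, so that other cells of the depot keep the gene. Both groups were C57BL/6 mice, 3 months old by the labels and housed at 4°C, and there were 2 libraries of each genotype. No group at a warmer temperature is part of the comparison, so the values describe the genotypes in the cold and not the cold itself. How many mice each library holds is not stated in the sources used here, so the p-values measure the spread between libraries, which may be technical.

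Noradrenaline released by sympathetic nerves acts on β-adrenergic receptors of adipocytes, which couple through the stimulatory G protein Gs to the membrane-bound adenylyl cyclases, and the cAMP they make activates protein kinase A, lipolysis and thermogenic genes. The membrane-bound isoforms all respond to Gs but differ in their other inputs. *Adcy1*, *Adcy3* and *Adcy8* encode isoforms stimulated by calcium and calmodulin, *Adcy5* and *Adcy6* isoforms inhibited by calcium, *Adcy2*, *Adcy4* and *Adcy7* isoforms stimulated by the βγ subunits of G proteins, and *Adcy9* an isoform little affected by forskolin. *Adcy10* encodes soluble adenylyl cyclase, which is not anchored in the plasma membrane and is activated by bicarbonate in place of G proteins.

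The sequences shown here are those of the genes that passed the test. The real-time PCR primers that the study designed for *Adcy3* and *Adcy10* were placed on the GENCODE transcripts of GRCm38, the mm10 build of the files, and they read as follows, with capitals for the bases that lie in the later of the exons a primer spans.
*Adcy3* forward: ctatgtgacctttgtggttgg
*Adcy3* reverse: CTTGGGAAATGAcctggga
*Adcy10* forward: ttcgagttaagatagGGCTGG
*Adcy10* reverse: tcaccaggaagtagttccg
In *Adcy3* the forward primer lies in coding exon sequence at chr12:4203526-4203546 on the plus strand, in exon 11, and the reverse primer crosses from exon 11 to exon 12, for an amplicon of 88 bases. In *Adcy10* the forward primer crosses from exon 5 to exon 6 and the reverse primer lies in exon 6 at chr1:165510302-165510320, for an amplicon of 81 bases. Both amplicons therefore cover a junction of coding exons, whereas the FPKM values below summarise reads over the whole of each gene's transcripts.

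The 250 bases before an annotated start of each of these genes were taken from RefSeq on GRCm38.p6, all on the plus strand, with capitals for matches to the GC box GGGCGG on either strand.
*Adcy3*, chr12:4133903-4134152: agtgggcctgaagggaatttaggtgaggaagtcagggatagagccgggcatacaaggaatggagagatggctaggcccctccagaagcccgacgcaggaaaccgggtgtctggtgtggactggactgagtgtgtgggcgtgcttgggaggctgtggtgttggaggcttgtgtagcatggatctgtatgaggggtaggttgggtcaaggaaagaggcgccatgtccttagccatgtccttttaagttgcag
*Adcy10*, chr1:165484933-165485182: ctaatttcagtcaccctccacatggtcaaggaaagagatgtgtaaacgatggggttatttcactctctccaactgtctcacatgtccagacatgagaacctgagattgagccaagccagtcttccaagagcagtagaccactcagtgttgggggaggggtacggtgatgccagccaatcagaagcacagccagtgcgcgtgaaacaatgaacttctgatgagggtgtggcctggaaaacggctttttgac
*Adcy5*, chr16:35154614-35154863: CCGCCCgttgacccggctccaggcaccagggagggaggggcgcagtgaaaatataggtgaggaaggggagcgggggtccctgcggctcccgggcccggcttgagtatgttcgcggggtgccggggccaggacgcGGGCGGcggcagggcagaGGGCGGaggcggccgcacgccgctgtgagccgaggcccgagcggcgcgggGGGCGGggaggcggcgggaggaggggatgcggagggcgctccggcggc
A second start of *Adcy3* lies upstream of the one shown, and the sequence before it is part of an annotated exon. The RefSeq spans of the genes begin at chr12:4133116 (*Adcy3*), chr1:165483518 (*Adcy10*) and chr16:35154494 (*Adcy5*). Each window shown therefore lies inside the span of its gene, before a start within that span. The table of promoters held 11 starts for 8 of the 10 genes, with *Adcy6* and *Adcy8* not among them. The cAMP response element TGACGTCA, searched on both strands, was found before none of the 11 starts, and it was found before 1.55% of the 32851 starts in the table. Its shorter core TGACG, which every full element also holds, was found before 1 start of *Adcy7* and before that of *Adcy9*, neither of which passed the test, and before 17.8% of all starts. The GC box was found before 6 of the 11 starts, with 4 matches each before *Adcy5* and *Adcy9*, 3 before *Adcy1*, 2 before *Adcy2* and 1 each before the upstream start of *Adcy3* and a start of *Adcy7*, and it was found before 32.7% of all starts. These matches describe the letters of the windows and say nothing of which factors bind there.

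The libraries were of similar depth, estimated from the steps between low FPKM values at about 18200000 and 17850000 reads in the Ctrl libraries, with 17700000 and 17600000 in the cKO libraries. The labelled tissue showed in its markers, with 8 of 8 white adipocyte genes past the filter and a summed FPKM of 30800 and 29300 in Ctrl and 22900 and 23100 in cKO. The libraries also differed in markers of other cell types. The 10 skeletal muscle markers summed to 2140 and 1420 FPKM in Ctrl and to 8.48 and 6.65 in cKO. All 8 that were tested were called lower, but all except *Acta1* and *Mylpf* averaged below 1 FPKM in cKO. Those passed the filter, a mean of at least 1 FPKM over the 4 libraries, only through Ctrl, so the filter favoured calls in that direction. The 6 brown and beige adipocyte markers summed to 1510 and 1790 FPKM in Ctrl and 4770 and 4030 in cKO, all 6 called higher, and the 6 B cell markers to 207 and 234 against 330 and 374, also all called higher. Counts called higher and lower were 0 and 5 of 8 white adipocyte, 0 and 4 of 8 endothelial, 1 and 3 of 6 macrophage, 5 and 0 of 5 neutrophil, 5 and 0 of 6 T cell, 1 and 3 of 7 smooth muscle, 0 and 6 of 7 fibroblast and 0 and 4 of 4 Schwann cell markers. Of the neutrophil markers, *Retnlg* averaged 0.9 FPKM in Ctrl and passed the filter only through cKO. Among all genes tested, 12% were called higher and 13.8% lower. In bulk tissue, fewer cells of a type and less RNA per cell cannot be told apart, and the part of these shifts in the results on the cyclases was not tested.

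*Slc22a3* (Entrez gene 20519), the targeted gene, was listed at 16.95 and 17.68 FPKM in the Ctrl libraries and at 9.07 and 9.5 FPKM in the cKO libraries, with no overlap. Its log2 fold change was -0.83 (limma with Benjamini-Hochberg adjustment, adjusted p = 0.000439). The target therefore moved as the genotype labels say, and reads of it were still present in cKO tissue. A value over the whole gene does not separate transcripts that lack the floxed exon from transcripts of cells without Cre.

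In cold ingWAT, 7 isoforms averaged at least 1 FPKM over the 4 libraries, and 3 of these passed the test for a difference between the genotypes. *Adcy3* and *Adcy10* were higher in cKO, *Adcy5* was lower, and *Adcy4*, *Adcy6*, *Adcy7* and *Adcy9* did not pass the test. *Adcy1*, *Adcy2* and *Adcy8* had a mean below 1 FPKM over the 4 libraries and were not tested in the comparison. Over all genes, 12658 passed that filter, and 25.8% of them were called at an adjusted p under 0.05 by limma on log2(FPKM + 1), 12% higher and 13.8% lower. The 3 of 7 cyclase genes called make 42.9%, in a group too small to set against that background. All log2 fold changes here are cKO against Ctrl on log2(FPKM + 1), a scale that understates the change of genes with low values. The median log2 fold change was -0.04 over the 7 cyclase genes and -0.006 over all genes tested.

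**Figure D1:**
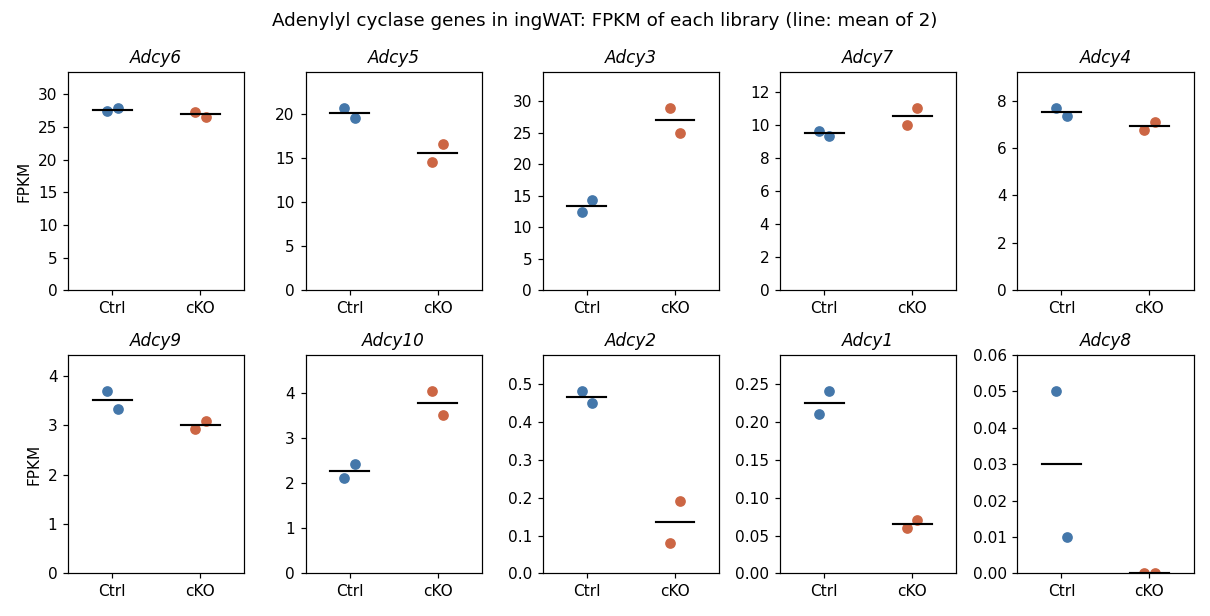
FPKM of the 10 adenylyl cyclase genes in each library of Ctrl (blue) and cKO (orange) ingWAT, 1 panel a gene in the order of the Ctrl means, with the mean of the 2 libraries as a black line and every axis starting at 0. In cKO, *Adcy3* rose to 26.9 FPKM, next to *Adcy6* at 27 FPKM, while *Adcy1*, *Adcy2* and *Adcy8* stayed below 0.5 FPKM in every library.

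Of the isoforms stimulated by calcium and calmodulin, *Adcy3* (Entrez gene 104111, chr12:4133116-4213525 in RefSeq on GRCm38, plus strand) was the only one above the filter. It was listed at 12.35 and 14.23 FPKM in the Ctrl libraries and at 28.85 and 24.99 FPKM in the cKO libraries. Both cKO libraries stood far above both Ctrl libraries, and the gap between the genotypes was wider than the gap within either. The means were 13.3 ± 1.33 FPKM in Ctrl and 26.9 ± 2.73 FPKM in cKO (SD, n = 2 each), so that the level rose 2.03-fold. The log2 fold change was 0.97 (standard error 0.0936, 95% confidence interval 0.75 to 1.19, limma with Benjamini-Hochberg adjustment, adjusted p = 0.000834). By size of rise, *Adcy3* ranked number 106 of the 12658 genes tested. These FPKM values stand for about 1012 and 1143 reads in Ctrl and 2299 and 1980 in cKO, for which counting alone gives an error of 2.09% to 3.14%. The call held with each library left out in turn, where the log2 fold change lay between 0.87 and 1.07 and the adjusted p between 0.00535 and 0.0212.

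*Adcy3* shares 1380 of its exon bases, 29.2% of them, with *Cenpo*, a centromere protein gene on the opposite strand. The sources used here do not state that reads were counted by strand, so reads of that stretch could be given to either gene. *Cenpo* was listed at 2.6 and 2.94 FPKM in Ctrl and at 2.7 and 2.9 FPKM in cKO, so its values overlapped between the genotypes and were well under those of *Adcy3*. Its neighbours on the chromosome, *Dnajc27* before it and *Ptrhd1* after it, were listed at 2.3 to 2.65 FPKM and at 2.51 to 3.31 FPKM over the 4 libraries. Over stretches of 50 bases, which is the length of the reads, the 10 cyclase genes shared none with each other, so reads of that length distinguish the isoforms.

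The other members of this class were at the edge of detection. *Adcy1*, best known as a neuronal isoform, was listed at 0.21 and 0.24 FPKM in Ctrl and at 0.06 and 0.07 FPKM in cKO, or about 47 and 52 reads against 13 and 15. *Adcy8*, also best known in the brain, was listed at 0.05 and 0.01 FPKM in Ctrl, about 6 reads and 1 read, and at 0 in both cKO libraries. Both genes were lower in each cKO library than in either Ctrl library. For *Adcy1*, counting alone gives an error of 13.9% to 27.7%, and for *Adcy8* a few reads decide the value. When no gene was left out for its level, *Adcy1* had an adjusted p = 0.0458, and with a mean of at least 0.1 FPKM required it had an adjusted p = 0.141, so its call depends on the filter.

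The isoforms inhibited by calcium were the most abundant pair in Ctrl tissue, and they parted in cKO. *Adcy5* (Entrez gene 224129, chr16:35154494-35305743, plus strand) was listed at 20.62 and 19.57 FPKM in the Ctrl libraries and at 14.57 and 16.53 FPKM in the cKO libraries. Both cKO libraries were below both Ctrl libraries, and the cKO libraries differed from each other by more than the Ctrl libraries did. The means were 20.1 ± 0.742 FPKM in Ctrl and 15.6 ± 1.39 FPKM in cKO (SD, n = 2 each), so that the level fell by 22.6%. The log2 fold change was -0.35 (standard error 0.0767, 95% confidence interval -0.53 to -0.17, limma with Benjamini-Hochberg adjustment, adjusted p = 0.0157). The call was lost without Ctrl 1 (adjusted p = 0.139), without Ctrl 2 (adjusted p = 0.0753) and without cKO 1 (adjusted p = 0.0715), and it held without cKO 2 (adjusted p = 0.019), with the direction kept in all 4 cases.

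*Adcy6* (Entrez gene 11512, chr15:98589978-98610287, minus strand), the closest relative of *Adcy5*, was the highest cyclase gene in both Ctrl libraries and in cKO 2, with *Adcy3* above it in cKO 1. It was listed at 27.49 and 27.89 FPKM in Ctrl and at 27.31 and 26.62 FPKM in cKO. The cKO values lay just below the Ctrl values, by less than 1 FPKM between the means. The log2 fold change was -0.04 with a 95% confidence interval of -0.17 to 0.10 (limma, adjusted p = 0.673). That interval rests on the spread between these libraries and may not cover the spread between mice. About 2812 to 3003 reads stand behind each value. Within each library the ratio of *Adcy5* to *Adcy6* FPKM was 0.75 and 0.702 in Ctrl and 0.534 and 0.621 in cKO, with no overlap. An exact permutation test of this ratio, two-sided, gave p = 0.333, the smallest value that 2 against 2 libraries allow.

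**Figure D2:**
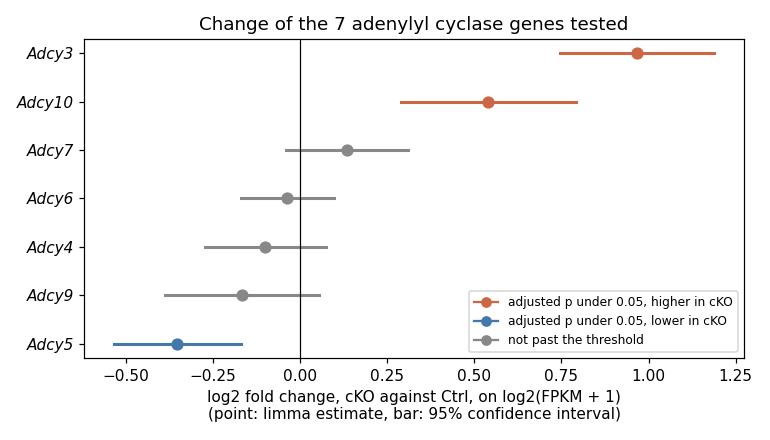
Log2 fold change of cKO against Ctrl on log2(FPKM + 1) for the 7 adenylyl cyclase genes tested, as limma estimates (points) with 95% confidence intervals (bars). The intervals of *Adcy3*, *Adcy10* and *Adcy5* keep clear of 0, and those of the other 4 genes include it.

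Of the isoforms stimulated by Gβγ, none that was tested passed the threshold. *Adcy7*, an isoform prominent in blood cells, was listed at 9.66 and 9.35 FPKM in Ctrl and at 10.04 and 11.03 FPKM in cKO. Its cKO values were the higher ones, with a log2 fold change of 0.13 (95% confidence interval -0.04 to 0.31, adjusted p = 0.231). B cell and T cell markers were higher in the same libraries, with sums given above, and their part in the *Adcy7* values was not tested. *Adcy4*, an isoform found in vessels among other tissues, was listed at 7.68 and 7.35 FPKM in Ctrl and at 6.78 and 7.11 FPKM in cKO, a log2 fold change of -0.10 (95% confidence interval -0.27 to 0.07, adjusted p = 0.362). The 8 endothelial markers summed to 321 and 313 FPKM in Ctrl and to 270 and 287 FPKM in cKO.

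*Adcy2*, an isoform of brain and skeletal muscle, was below the filter and was listed at 0.48 and 0.45 FPKM in Ctrl and at 0.08 and 0.19 FPKM in cKO. These values stand for about 36 and 34 reads against 6 and 14. Both cKO libraries were lower, and the gene had an adjusted p = 0.0488 when no filter was set and an adjusted p = 0.0464 when a mean of at least 0.1 FPKM was required. The skeletal muscle markers fell in the same direction to near 0, and the 6 listed Schwann cell and nerve markers summed to 154 and 137 FPKM in Ctrl against 47.3 and 57.7 in cKO, and the part of either in the *Adcy2* values was not tested.

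*Adcy9* was listed at 3.68 and 3.32 FPKM in Ctrl and at 2.93 and 3.08 FPKM in cKO. The cKO values were the lower ones, at about 244 and 255 reads against 315 and 279. The log2 fold change was -0.17 with a 95% confidence interval of -0.39 to 0.05 (adjusted p = 0.237). The libraries of the 2 genotypes did not overlap for any of the 7 genes tested, higher in cKO for 3 and lower for 4. Over all genes tested, both cKO libraries were above both Ctrl libraries for 31.9% and below them for 34.6%, so a lack of overlap by itself is common in these data.

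*Adcy10* (Entrez gene 271639, chr1:165483518-165576778, plus strand), the soluble cyclase, was a gene of low level that rose in cKO. It was listed at 2.12 and 2.43 FPKM in the Ctrl libraries and at 4.03 and 3.5 FPKM in the cKO libraries. Both cKO libraries were above both Ctrl libraries. The means were 2.28 ± 0.219 FPKM in Ctrl and 3.77 ± 0.375 FPKM in cKO (SD, n = 2 each), so that the level rose 1.65-fold. The log2 fold change was 0.54 (standard error 0.106, 95% confidence interval 0.29 to 0.79, limma with Benjamini-Hochberg adjustment, adjusted p = 0.0105). With a pseudocount of 0.1 in place of 1, the log2 fold change was 0.70. The gene ranked number 428 of 12658 by size of rise. About 200 and 224 reads in Ctrl and 369 and 319 in cKO stand behind the values, with a counting error of 5.21% to 7.07%.

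The call of *Adcy10* was less firm than that of *Adcy3*. It was lost without Ctrl 1 (adjusted p = 0.107), without Ctrl 2 (adjusted p = 0.0509) and without cKO 1 (adjusted p = 0.0576), and it held without cKO 2 (adjusted p = 0.0237), with log2 fold changes of 0.46 to 0.62. *Adcy10* is best known from testis, and the germ cell markers that the table lists were at or near 0, with a sum of 0.06 to 0.17 FPKM in the 4 libraries. The gene upstream on the same strand is *Mpc2*, a subunit of the mitochondrial pyruvate carrier, which ends 2299 bases before the RefSeq span of *Adcy10* begins. *Mpc2* was listed at 476.68 and 455.85 FPKM in Ctrl and at 637.62 and 582.55 FPKM in cKO, with a log2 fold change of 0.39 (adjusted p = 0.00937). Whether transcripts that run past the end of *Mpc2* add to the *Adcy10* values was not tested.

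The make-up of the cyclase transcripts changed more than their total. The summed FPKM of the 10 genes was 84.3 and 84.8 in Ctrl and 94.7 and 93.1 in cKO. *Adcy3* made up 14.6% and 16.8% of the sum in Ctrl and 30.5% and 26.8% in cKO, a difference of 13 percentage points. *Adcy5* made up 24.4% and 23.1% in Ctrl and 15.4% and 17.8% in cKO, a difference of -7.19 points. *Adcy6* went from 32.6% and 32.9% to 28.9% and 28.6%, although its own level was nearly the same. Because the shares add to a fixed total, the rise of *Adcy3* lowers the others.

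Grouped by regulation, the calcium-inhibited pair made up 57% and 55.9% of the sum in Ctrl and 44.2% and 46.3% in cKO. The class stimulated by calcium and calmodulin, nearly all of it *Adcy3*, made up 15% and 17.1% in Ctrl and 30.5% and 26.9% in cKO. The Gβγ-stimulated class made up 21.1% and 20.2% in Ctrl and 17.9% and 19.7% in cKO. No library of a genotype overlapped the other genotype in any of these classes, and the exact permutation test, two-sided, gave p = 0.333 for each, the smallest it can give with 2 libraries a group. *Adcy7* kept the same mean share, 11.2% in both genotypes, and its libraries overlapped.

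**Figure D3:**
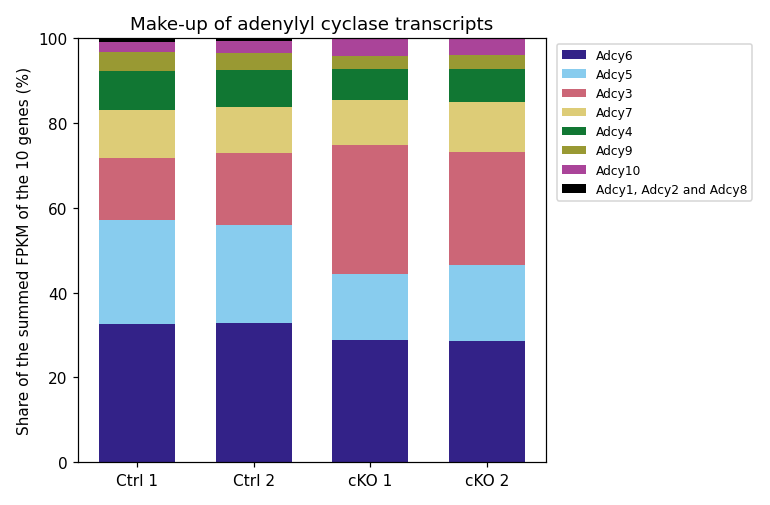
Share of each adenylyl cyclase gene in the summed FPKM of the 10 genes, in percent, with 1 bar a library. The *Adcy3* segment widens from 14.6% and 16.8% in the Ctrl libraries to 30.5% and 26.8% in the cKO libraries, and the *Adcy5* segment narrows from 24.4% and 23.1% to 15.4% and 17.8%.

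By level, the order in Ctrl was *Adcy6*, *Adcy5*, *Adcy3*, *Adcy7*, *Adcy4*, *Adcy9*, *Adcy10*, *Adcy2*, *Adcy1* and *Adcy8*, and every library of a gene was above both Ctrl libraries of the next. In cKO, *Adcy3* moved up beside *Adcy6*, and the ranges of these genes overlapped. *Adcy5* came next, with every library below those of *Adcy3*, and *Adcy10* stood above *Adcy9*, the reverse of their order in Ctrl. The ratio of *Adcy3* to *Adcy5* FPKM within a library was 0.599 and 0.727 in Ctrl and 1.98 and 1.51 in cKO. The most abundant cyclase besides *Adcy6* was thus *Adcy5* in both Ctrl libraries and *Adcy3* in both cKO libraries.

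The genes with the profile most like each of the 3 cyclases were named by the distance between centred log2(FPKM + 1) values over the 4 libraries, a description that rests on 4 points and shares their depth and dissection. Closest to *Adcy3* were the glycolytic genes *Gpi1* (distance 0.0266) and *Eno1* (distance 0.0274), and *Thbs1* (distance 0.0372), which encodes a matrix protein. *Gpi1* was listed at 215.8 and 242.09 FPKM in Ctrl and at 474.01 and 411.01 FPKM in cKO. Closest to *Adcy10* were *Cpt2* (distance 0.0141), a mitochondrial carnitine acyltransferase, *Ndufb8* (distance 0.0154), a complex I subunit, and *Itpk1* (distance 0.0229), an inositol phosphate kinase. Closest to *Adcy5* were *Sfxn2* (distance 0.0139), *Msrb3* (distance 0.0152) and *Eva1b* (distance 0.0201). Within a distance of 0.1 there were 18 genes for *Adcy3*, 91 for *Adcy10* and 259 for *Adcy5*, so the profile of *Adcy5* is a common one.

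The genes around the cyclases were taken from lists of their inputs, partners and outputs. On the stimulatory side, *Gnas*, which encodes Gαs, was listed at 753.16 and 794 FPKM in Ctrl and at 1027.33 and 959.38 FPKM in cKO. Both cKO libraries were higher, with a log2 fold change of 0.36 (adjusted p = 0.0139). That call was lost without Ctrl 1 (adjusted p = 0.191) and without Ctrl 2 (adjusted p = 0.104). *Gnal*, the olfactory relative of *Gnas*, had 5.33 and 4.73 against 4.29 and 4.14 FPKM (adjusted p = 0.132), and *Ric8b*, a chaperone of Gαs, had 9.87 and 10.52 against 10.27 and 9.26 FPKM (adjusted p = 0.629).

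On the inhibitory side, 1 of 5 genes tested was higher and 1 lower, against 12% and 13.8% over all genes tested. *Gnai1*, an inhibitory α subunit, fell from 57.66 and 59.21 FPKM in Ctrl to 38.3 and 42.13 FPKM in cKO, a log2 fold change of -0.53 (adjusted p = 0.00179). *Gnao1*, which encodes Gαo, rose from 6.64 and 7.37 to 13.36 and 11.1 FPKM, a log2 fold change of 0.72 (adjusted p = 0.00281), a call lost without Ctrl 1 (adjusted p = 0.0529). *Gnai2*, the most abundant gene of the list, was listed at 181.15 and 171.19 against 190.41 and 189.13 FPKM (adjusted p = 0.227). *Gnai3* had 31.36 and 32.36 against 28.86 and 31.77 FPKM (adjusted p = 0.475) and *Ric8a*, a chaperone of Gαi, 17.52 and 16.09 against 16.86 and 17.48 FPKM (adjusted p = 0.778). *Gnaz*, at 0.25 to 0.52 FPKM, was below the filter. The inhibitory list thus held changes in both directions, and its summed FPKM was 295 and 286 in Ctrl and 288 and 292 in cKO.

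Of the β subunits, 1 of 4 tested was called, against 25.8% of all genes tested. It was *Gnb5*, which pairs with RGS proteins, at 22.96 and 21.57 FPKM in Ctrl and 17.69 and 18.93 FPKM in cKO (log2 fold change -0.27, adjusted p = 0.0252). Its call was lost without Ctrl 1 (adjusted p = 0.18), without Ctrl 2 (adjusted p = 0.0781) and without cKO 1 (adjusted p = 0.111). The abundant *Gnb1* had 95.96 and 95.88 against 95.94 and 98.88 FPKM (adjusted p = 0.8), *Gnb2* 179.15 and 163.16 against 166.15 and 166.33 FPKM (adjusted p = 0.691) and *Gnb4* 6.39 and 6.52 against 4.63 and 6.27 FPKM (adjusted p = 0.235). *Gnb4* passed without cKO 2 (adjusted p = 0.0322). *Gnb3* was at 0 to 0.06 FPKM.

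Of 7 γ subunits tested, 1 was called lower and 1 higher, against 13.8% and 12% over all genes tested. *Gng7* was lower, at 5.23 and 4.38 FPKM in Ctrl and 3.47 and 2.87 FPKM in cKO (log2 fold change -0.48, adjusted p = 0.0224). *Gngt2* was higher, at 26.6 and 28.98 against 32.9 and 40.16 FPKM (log2 fold change 0.38, adjusted p = 0.0294). Neither call held without Ctrl 1, where the adjusted p was 0.188 for *Gng7* and 0.206 for *Gngt2*, nor without Ctrl 2, where it was 0.0612 and 0.0957. Without cKO 2 they were lost as well, with adjusted p = 0.0946 and adjusted p = 0.103, and after quantile normalization *Gng7* had an adjusted p = 0.0507.

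Of the receptors that couple to Gs, 14 were tested, and 7 of them were called lower and 1 higher, against 13.8% lower and 12% higher over all genes tested. Their median log2 fold change was -0.30. The number called was 4 without Ctrl 1 and 5 without Ctrl 2, where *Mc5r* no longer passed the filter on low values. *Mc5r*, a melanocortin receptor, fell from 2.06 and 1.81 FPKM to 0.2 and 0.5 FPKM (log2 fold change -1.13, adjusted p = 0.00243). With a cKO mean of 0.35 FPKM, it passed that filter only through Ctrl. *Mc2r*, the ACTH receptor, fell from 9.62 and 8.77 to 5.09 and 4.73 FPKM (log2 fold change -0.79, adjusted p = 0.00109), and *Tshr*, the thyrotropin receptor, from 28.97 and 29.66 to 16.1 and 18.1 FPKM (log2 fold change -0.75, adjusted p = 0.000816).

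The single receptor of the Gs list called higher was *Adrb1*, the β1-adrenergic receptor, at 2.79 and 3.39 FPKM in Ctrl and 6.33 and 5.6 FPKM in cKO (log2 fold change 0.77, adjusted p = 0.00279). *Adrb3*, the β3-adrenergic receptor of adipocytes, named here after its values were seen, fell from 166.45 and 151.12 to 113.26 and 122.23 FPKM (log2 fold change -0.43, adjusted p = 0.00568), a call lost without Ctrl 1 (adjusted p = 0.0701). The β1 and β3 receptor genes therefore moved in opposite directions, with *Adrb3* still the more abundant by far in each library.

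Receptors that couple to Gi gave 2 lower and 1 higher of 10 tested, a share close to the 25.8% called over all genes tested. *Ptger3*, the prostaglandin EP3 receptor, fell from 55.69 and 51.09 to 33.71 and 34.47 FPKM (log2 fold change -0.63, adjusted p = 0.00092). *Hcar1*, the lactate receptor, fell from 38.63 and 38.95 to 22.11 and 29.88 FPKM (log2 fold change -0.57, adjusted p = 0.0151), a call lost without Ctrl 1 (adjusted p = 0.122) and without Ctrl 2 (adjusted p = 0.107). *Cxcr4*, a chemokine receptor of leukocytes, rose from 8.54 and 10.41 to 12.47 and 13.68 FPKM (log2 fold change 0.43, adjusted p = 0.0194). B and T cell markers were higher in the same libraries, and their part in the *Cxcr4* values was not tested. *Cxcr4* lost the call without Ctrl 1 (log2 fold change 0.30), without cKO 1 (log2 fold change 0.49) and without cKO 2 (log2 fold change 0.37). The list's count was 1 without Ctrl 1.

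Calcium inputs bear on the isoforms of *Adcy3*, *Adcy5* and *Adcy6*, in a direction that need not be the same for each regulator. Of 11 tested genes of a list of calcium-dependent regulators of the cyclases, 2 were called lower and none higher. Over all genes tested, 13.8% were called lower and 12% higher. *Camk2a* fell from 3.89 and 2.8 to 0.63 and 0.7 FPKM (log2 fold change -1.37, adjusted p = 0.00112). Its cKO mean was 0.665 FPKM, so it passed the filter on low values only through Ctrl. It is a kinase of neurons and muscle, and the skeletal muscle markers fell with it, whose part was not tested. *Camk2d* fell from 15.18 and 14.68 to 10.19 and 12.34 FPKM (log2 fold change -0.38, adjusted p = 0.0229), a call lost without Ctrl 1 (adjusted p = 0.168), without Ctrl 2 (adjusted p = 0.113) and without cKO 1 (adjusted p = 0.0776). The count of the list was 1 in each of these 3 cases.

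Among 8 tested anchors, kinases and inhibitors that bind adenylyl cyclase, 3 were called higher and 2 lower, against 12% and 13.8% over all genes tested. *Rgs2*, an inhibitor of several isoforms, rose from 16.41 and 20.03 to 25.45 and 25 FPKM (log2 fold change 0.45, adjusted p = 0.0119), and *Prkcd*, a protein kinase C, from 17.88 and 18.34 to 23.29 and 23.69 FPKM (log2 fold change 0.36, adjusted p = 0.00525). *Akap12*, an anchoring protein, fell from 9.71 and 9.87 to 7.17 and 7.28 FPKM (log2 fold change -0.39, adjusted p = 0.00675), and *Prkca* from 3.79 and 3.57 to 2.28 and 2.9 FPKM (log2 fold change -0.39, adjusted p = 0.0432). None of the list was called without Ctrl 1, with adjusted p from 0.0646 for *Prkcd* to 0.234 for *Prkca*, and 2 were called without Ctrl 2, where *Akap12* had an adjusted p = 0.0685 and *Prkca* an adjusted p = 0.149. Without cKO 1, 3 were called, 1 of which passed the filter on low values in that case, and *Rgs2* had an adjusted p = 0.0729 and *Prkca* an adjusted p = 0.145, while without cKO 2 *Rgs2* had an adjusted p = 0.057. After quantile normalization *Prkca* had an adjusted p = 0.0525.

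The carbonic anhydrase family makes the bicarbonate that activates the soluble cyclase, but not every member need do so, and bicarbonate was not measured. Of 8 genes of the family tested, 2 were higher and 2 lower, against 12% and 13.8% over all genes tested. *Car3*, a cytosolic form abundant in fat and muscle, was listed at 7657.5 and 7203.05 FPKM in Ctrl and at 3914.77 and 4482.41 FPKM in cKO (log2 fold change -0.83, adjusted p = 0.00335). Its call was lost after quantile normalization (adjusted p = 0.263), without Ctrl 1 (adjusted p = 0.141) and without Ctrl 2 (adjusted p = 0.0943). *Car5b*, a mitochondrial form, went from 67.03 and 69.37 to 50.24 and 54.17 FPKM (log2 fold change -0.38, adjusted p = 0.00505), and missed the threshold without Ctrl 1 (adjusted p = 0.0514) and without Ctrl 2 (adjusted p = 0.0518). *Car14* was higher, at 0.77 and 1.1 against 1.95 and 1.56 FPKM (log2 fold change 0.51, adjusted p = 0.0365), and so was *Car2*, at 3.23 and 3.52 against 4.92 and 4.46 FPKM (log2 fold change 0.38, adjusted p = 0.0232). With a Ctrl mean of 0.935 FPKM, *Car14* passed the filter on low values only through cKO. *Car14* lost its call with any library left out (adjusted p from 0.0545 to 0.2) and *Car2* in all cases but that of cKO 2 (adjusted p from 0.0887 to 0.173). None of the list was called without Ctrl 1 or without Ctrl 2, and 2 were called without cKO 1.

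**Figure D4:**
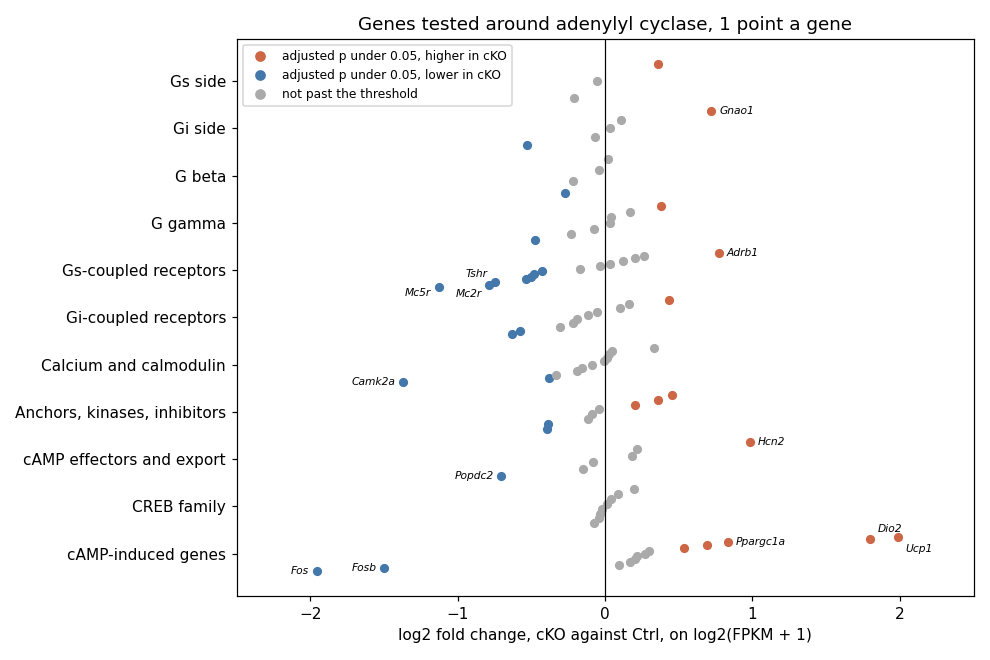
Log2 fold change of cKO against Ctrl on log2(FPKM + 1) for the genes tested of 11 lists around adenylyl cyclase, with 1 point a gene and colour for its call. Of the 14 receptors coupled to Gs, 7 are called lower, against 13.8% of all genes tested, and *Adrb1* is called higher. The genes of the CREB family lie close to 0.

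Downstream of cAMP, none of the 8 genes of the CREB family and its coactivators was called by limma, against 25.8% of all genes tested. In that list, 1 gene had an unadjusted p under 0.05. Of the effectors other than protein kinase A and the cAMP exporters, 1 of 6 tested was higher and 1 lower. The shares over all genes tested were 12% and 13.8%. *Hcn2*, a channel gated by cyclic nucleotides, rose from 0.87 and 1.08 to 3.34 and 2.5 FPKM (log2 fold change 0.98, adjusted p = 0.00298). It averaged 0.975 FPKM in Ctrl and passed the filter on low values only through cKO. *Popdc2*, a cAMP-binding membrane protein of striated muscle, fell from 6.46 and 5.14 to 3.04 and 3.27 FPKM (log2 fold change -0.70, adjusted p = 0.0048). The skeletal muscle markers were lower in the same libraries, and their part in the *Popdc2* values was not tested. *Popdc2* lost its call without Ctrl 1 (log2 fold change -0.56).

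Genes that cAMP is known to induce gave 5 higher and 2 lower of 13 tested, against 12% and 13.8% over all genes tested, and 7 or 8 calls with any library left out. Their median log2 fold change was 0.27. *Ucp1*, the uncoupling protein of brown fat, had 334.8 and 446.36 FPKM in Ctrl and 1657.92 and 1420.2 FPKM in cKO (log2 fold change 1.99, adjusted p = 0.000337). *Dio2*, the enzyme that activates thyroid hormone, rose from 1.98 and 3.17 to 11.73 and 10.77 FPKM (log2 fold change 1.80, adjusted p = 0.000543). The genes called lower were *Fos* and *Fosb*, which encode AP-1 subunits, *Fos* from 19.33 and 14.14 to 2.94 and 4.19 FPKM (log2 fold change -1.96, adjusted p = 0.000601) and *Fosb* from 2.81 and 2.58 to 0.23 and 0.39 FPKM (adjusted p = 0.000521). *Fosb* averaged 0.31 FPKM in cKO and passed the filter on low values only through Ctrl. The list therefore did not move as one, and the genes called higher in it include markers of brown and beige adipocytes.

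The guanylyl cyclases, the relatives of the adenylyl cyclases that make cGMP, were called lower in each of the 4 genes tested, against 13.8% lower over all genes tested. The soluble enzyme's subunit genes fell, *Gucy1a3* from 4.97 and 4.75 to 2.9 and 3.7 FPKM (log2 fold change -0.45, adjusted p = 0.0235) and *Gucy1b3* from 4.03 and 4.49 to 2.46 and 2.44 FPKM (log2 fold change -0.61, adjusted p = 0.00426). The natriuretic peptide receptors *Npr1*, from 22.98 and 20.63 to 17.27 and 17.82 FPKM (log2 fold change -0.30, adjusted p = 0.0222), and *Npr2*, from 17.83 and 17.33 to 13.69 and 13.99 FPKM (log2 fold change -0.32, adjusted p = 0.00911), fell as well. *Gucy1b3* lost its call without Ctrl 2, and *Npr2* without Ctrl 1 or without Ctrl 2. *Gucy1a3* lost its call without Ctrl 1, Ctrl 2 or cKO 1, and *Npr1* without Ctrl 1, cKO 1 or cKO 2. The endothelial, smooth muscle and fibroblast markers were also lower in sum in the cKO libraries, and their part in these values was not tested.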

How the data were processed

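The authors purified polyadenylated RNA of ingWAT, read 50-base single-end sequences on a BGISEQ-500 and deposited the FPKM of each gene in each library, which scales fragments by transcript length and by mapped reads. The submitters' processing notes name HISAT2 2.0.4, RSEM 1.2.12 and the build mm10. No read counts were used, since FPKM steps gave the depth (76.3% to 84.9% of the values of short RNA genes used came out whole within 0.1 reads) but not whole reads for genes in general, so numbers of reads are estimates and errors given for them cover counting only. Depth limited the precision most for *Adcy1*, *Adcy2* and *Adcy8*.

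Libraries were grouped by their labels, Control as Ctrl and Deficient as cKO. Genes whose FPKM averaged at least 1 were compared on log2(FPKM + 1) with limma 3.58.1 (eBayes with a trend) in R 4.3.3. Tests were two-sided, with Benjamini-Hochberg adjustment over 12658 genes and a threshold of 0.05. The procedure was tried on simulated data with changes larger than those of the cyclase genes, so that trial does not bear on calls of their size. Intervals are limma's at 95%. Shares and ratios were compared with a two-sided exact permutation test over libraries. Python 3.11.15, with numpy 2.4.6, pandas 2.3.3 and, for the plots, matplotlib 3.10.9, served the remaining steps. Positions and promoters are from RefSeq on GRCm38.p6 and exons from GENCODE M21 on the same assembly.

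The isoforms and the lists were chosen with earlier results of these data known. Named were the 10 cyclase genes, *Slc22a3*, the genes of the Gs, Gi and Gβ lists, up to 4 called genes of each other list by absolute log2 fold change and the 3 genes nearest in profile to each called cyclase, with the genes next to or overlapping *Adcy3* and *Adcy10* on the chromosome named after their values were seen, and *Adrb3* likewise. The marker lists covered white and brown or beige adipocytes, endothelium, macrophages, neutrophils, B and T cells, smooth muscle, fibroblasts, Schwann cells, skeletal muscle, epithelium (0.63 to 0.9 FPKM in sum, none tested) and germ cells. Alternatives were a smaller pseudocount (0.1), other filters, quantile normalization or scaling by median of ratios, a block for the replicate number, eBayes with no trend, a fold threshold and each library left out, for which the filter was set again on the libraries kept. With 1 library left in a group, its spread is assumed to be that of the other group. The study's real-time PCR was not analysed here.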

Additional observations from a re-analysis of the deposited data

How the results depend on the processing

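Every alternative in which *Adcy3* was tested on its adjusted p alone kept it higher and past the threshold. Of all genes, 3269 were called, with 1762 when no filter was set, 233 when an absolute log2 fold change of at least 1 was also required, and 877 to 2429 with 1 library left out (877 without Ctrl 1, 1531 without Ctrl 2 and 2165 without cKO 1). For these counts the cause was not tested, beyond the smaller number of samples. The adenylyl cyclase genes called were 2 higher and 1 lower. They were 1 higher and 2 lower with no filter, where *Adcy10* (adjusted p = 0.0606) and *Adcy5* (adjusted p = 0.0729) were lost and *Adcy1* and *Adcy2* entered, 2 higher and 2 lower with a mean of at least 0.1 FPKM, and 1 higher with a mean of at least 5 FPKM, at which *Adcy10* is not tested. With an absolute log2 fold change of at least 1, 0 were called in either direction, since *Adcy3* stood at 0.97. With 1 library left out, 1 to 2 were called higher and 0 to 1 lower. The share of *Adcy3* differed by 11.1 to 14.8 points and that of *Adcy5* by -8.36 to -6.01 points with 1 library left out. The share of *Adcy7*, whose difference was -0.011 points, was 0.146 points higher in cKO without *Adcy10* in the sum, and 0.205 and 0.608 points higher without Ctrl 1 and without cKO 1, against -0.63 points without cKO 2.

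Whether the replicate numbers pair the libraries is not stated in the sources used here. Deviations of libraries with the same number correlated at r = 0.0148 over 12658 genes, which cannot settle it with 2 libraries a group. With the replicate number as a block, 3383 genes were called, *Adcy3* (adjusted p = 0.000542), *Adcy10* (adjusted p = 0.0115) and *Adcy5* (adjusted p = 0.0142) kept their calls, and *Gnas* missed the threshold (adjusted p = 0.0507). Of the 13 lists around the cyclases, 2 had a count that moved by over 1.5 times under another scaling, pseudocount or the block, and 11 with 1 library left out. A design of 2 against 2 libraries and genes under 1 FPKM set the limits.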
